A study of Mus musculus with 2 samples.

Results

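The 33 genes described here encode the enzymes that take glucose to lactate in the cytosol, the enzymes that regulate or branch from that route, and the 2 main carriers that move lactate across the cell membrane. They were chosen by name as the isozymes of each step, and all 33 were found among the 55450 annotated genes that every deposited table holds. They are listed under 34 gene identifiers, because Aldoa has a second identifier of 0.31 TPM in replicate 1 and 0.30 TPM in replicate 2, which was summed with the first. TPM is a relative abundance, corrected for transcript length and for the size of the library. The genes form 17 steps or branches, and 11 of these have 2 or more isozymes.

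Total RNA was sequenced from the gastrocnemius, the fast calf muscle, of 2 adult male B6CASTF1/J mice, a cross of the C57BL/6J and CAST/EiJ inbred strains, aged 8 to 10 months. Each animal gave 1 library from 300 ng of RNA, and no treatment, allele or agent separates the animals. The labels call them animals 2 (replicate 1) and 4 (replicate 2) under 1 shared donor identifier, and state nothing else of how the samples were taken, so the spread between them may be in part technical. The tables hold 1 value per gene, with the 2 parental alleles together.

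Glycolysis splits glucose into pyruvate in a chain of cytosolic reactions, and most of its steps can be catalysed by several isozymes encoded by separate genes. Skeletal muscle, and fast fibres above all, is known for high activities of these enzymes and for its own muscle forms of phosphofructokinase, phosphoglycerate mutase and enolase. Pyruvate is reduced to lactate by lactate dehydrogenase, and lactate leaves or enters the fibre through proton-coupled monocarboxylate carriers. At each step below the question is which isozyme the muscle expressed, at what level, and how alike the 2 animals were.

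The gene totals were 36791447 expected counts for replicate 1 and 37750905 for replicate 2. For a gene with 0 counts, 3 counts were taken as its limit (a one-sided 95% limit), or 0.0815 CPM in replicate 1 and 0.0795 CPM in replicate 2. Levels are from the deposited gene table, whose method also gave a first transcript table, and a second quantification by another program was used beside them. Intervals and limits given here cover counting error only. Fast fibre markers marked the tissue as labelled, with a summed level of 59537 TPM in replicate 1 and 64591 TPM in replicate 2 over 7 genes, all 7 detected, and Tnnt3, Mylpf and Atp2a1 highest. The 6 slow fibre markers, led by Myl3, Myh7 and Atp2a2, summed to 1292 TPM in replicate 1 and 846 TPM in replicate 2. The adipocyte list (6 genes) summed to 77.7 and 94.9 TPM, the endothelial list (5 genes) to 33.3 and 40.0 TPM, the smooth muscle and pericyte list (5 genes) to 42.4 and 66.8 TPM, and the fibroblast list (4 genes) to 116 and 119 TPM, each in replicate 1 and replicate 2. Erythroid markers (7 genes) summed to 223 and 251 TPM, the macrophage and neutrophil list (7 genes) to 8.80 and 8.40 TPM, the Schwann list (5 genes) to 21.9 and 24.3 TPM, and the satellite cell list (3 genes) to 1.34 and 1.05 TPM in the same order. The neuron list (5 genes) summed to 1.85 and 1.59 TPM and the liver list (5 genes) to 2.14 and 2.94 TPM, while the 3 skin keratins were at 0 in both animals. In bulk tissue such as this, fewer cells of a type and less RNA per cell cannot be told apart.

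Together the 33 genes held 25256 TPM in replicate 1 and 27222 TPM in replicate 2. That is 5.86% and 6.22% of all TPM of nuclear protein-coding genes, with a mean of 6.04% ± 0.259 (SD, n = 2), and 3.21% ± 0.298 of their counts. Of the 33 genes, 28 reached 1 TPM or more in both animals, against 44.7% of the 21938 nuclear protein-coding genes. A level of 1000 TPM or more in both animals was reached by 8 of the 33, against 0.16% of the nuclear protein-coding genes. Another 7 lay between 100 and 1000 TPM, 8 stayed under 3 TPM, and 10 lay between those ranges. Of the genes at 1000 TPM or more, Tpi1 was at the edge, with 1000.4 TPM in replicate 1. In the second quantification Pfkm (950 TPM), Tpi1 (951 TPM) and Pgam2 (948 TPM) fell below 1000 TPM in replicate 1. Pgam2 was just below it in replicate 2 as well (999.6 TPM). The 10 most abundant genes held 96.3% of the summed level. The median over the 33 was 49.9 TPM in replicate 1 and 51.3 TPM in replicate 2, while nuclear protein-coding genes at 1 TPM or more had medians of 8.26 and 8.01 TPM.

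**Figure D1:**
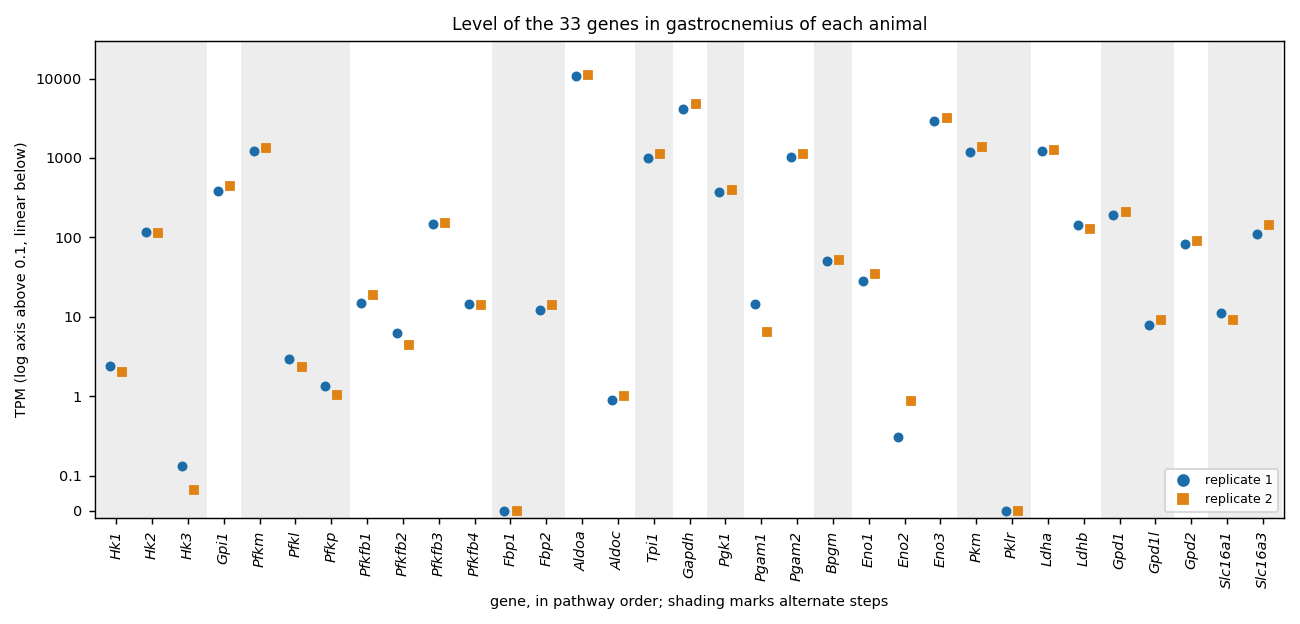
TPM of each of the 33 genes in replicate 1 (circles) and replicate 2 (squares) on a log axis that turns linear below 0.1, in pathway order with alternate steps shaded. Aldoa stands highest, at 10744 TPM in replicate 1 and 11169.6 TPM in replicate 2, and Fbp1 and Pklr lie at 0 in both animals.

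The steps differed widely in summed level. Aldolase was highest at 10958 ± 301 TPM, followed by glyceraldehyde phosphate dehydrogenase at 4515 ± 454 TPM and enolase at 3075 ± 162 TPM (SD, n = 2 for each). Lactate dehydrogenase at 1375 ± 7.20 TPM, phosphofructokinase at 1286 ± 101 TPM, pyruvate kinase at 1284 ± 136 TPM, phosphoglycerate mutase at 1091 ± 55.4 TPM and triosephosphate isomerase at 1054 ± 75.7 TPM came next. In that group of 5, the SD ranges of lactate dehydrogenase, phosphofructokinase and pyruvate kinase overlapped in the gene table, as did those of phosphoglycerate mutase and triosephosphate isomerase. In the second quantification Ldha alone had 1435 ± 2.26 TPM, above Pfkm at 986 ± 51.2 TPM and Pkm at 1086 ± 81.2 TPM. Glucose phosphate isomerase at 417 ± 38.5 TPM and phosphoglycerate kinase at 388 ± 16.7 TPM, whose SD ranges also meet, followed. Hexokinase, the first step, had 116 ± 2.81 TPM, the lowest sum among the reactions between glucose and lactate. Lactate transport had 138 ± 21.8 TPM.

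Glucose entry into the pathway rested on Hk2. Hk2 (chr6:82725025-82774454, minus strand, mm10), the insulin-responsive hexokinase of muscle and fat, had 115.8 TPM in replicate 1 and 112 TPM in replicate 2, which is 97.9% and 98.2% of hexokinase TPM. Hk1 (chr10:62268855-62379908), the form of brain and most other tissues, had 2.37 TPM in replicate 1 and 2.01 TPM in replicate 2. Hk3, a hexokinase best known from blood cells, had 0.13 TPM in replicate 1 and 0.06 TPM in replicate 2 and rested on 5 counts in each, with an exact 95% Poisson interval of 1.62 to 11.7 counts. The 2 animals thus gave the same order of the 3 genes. Gpi1 (chr7:34201330-34230336), the single isomerase that turns glucose phosphate into fructose phosphate, had 389 TPM in replicate 1 and 444 TPM in replicate 2.

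Phosphofructokinase, the main regulated step, was almost wholly of the muscle form. Pfkm (chr15:98092589-98132451), the muscle subunit, had 1211 TPM in replicate 1 and 1354 TPM in replicate 2. Pfkl, the liver subunit, had 2.93 TPM in replicate 1 and 2.30 TPM in replicate 2, and Pfkp, the platelet subunit, had 1.36 and 1.02 TPM. The muscle subunit therefore took 99.6% of the step in replicate 1 and 99.8% in replicate 2. Pfkfb genes encode bifunctional enzymes that make and break the sugar bisphosphate that activates phosphofructokinase, and their step was the most divided of the 11. Pfkfb3 (chr2:11471433-11554077), the inducible form with a high kinase activity, led with 145 TPM in replicate 1 and 149.8 TPM in replicate 2, or 80.3% ± 0.193 of the step. Pfkfb1, the form first described in liver and also made in muscle, had 14.8 TPM in replicate 1 and 18.7 TPM in replicate 2. Pfkfb4, known from testis, had 14.3 and 13.9 TPM, and Pfkfb2, known from heart, 6.21 and 4.42 TPM. Pfkfb1 at 9.09% ± 1.30 and Pfkfb4 at 7.68% ± 0.345 did not differ beyond their spread, and both lay above Pfkfb2 at 2.90% ± 0.757. In the opposite direction, Fbp2 (chr13:62836877-62858422), the muscle fructose bisphosphatase, had 12.2 TPM in replicate 1 and 14.1 TPM in replicate 2. Fbp1, the liver form, which lies beside it on chromosome 13, had 0 counts in both animals, so that in counts Fbp2 was at least 129-fold higher in replicate 1 and at least 168-fold higher in replicate 2, taking 3 counts per library as the limit.

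Aldoa (chr7:126795234-126800751), the aldolase of muscle and red cells, which cuts the fructose bisphosphate into triose phosphates, was the most abundant of the 33 genes and ranked 7 among nuclear protein-coding genes. It had 10744 TPM in replicate 1 and 11169.6 TPM in replicate 2, which is 42.5% and 41.0% of the summed TPM of the 33 genes. Aldoc, the brain form, had 0.89 and 1.01 TPM, from 36 and 40 counts. Tpi1 (chr6:124810586-124814296), which interconverts the triose phosphates, had 1000.4 TPM in replicate 1 and 1107 TPM in replicate 2. On the same chromosome the neuronal enolase gene Eno2 (chr6:124760053-124769673) lies close to Tpi1, and it had 0.31 TPM in replicate 1 and 0.86 TPM in replicate 2. Gapdh (chr6:125161715-125166467), which oxidises glyceraldehyde phosphate and reduces NAD, had 4194 TPM in replicate 1 and 4836 TPM in replicate 2. Pgk1 (chrX:106187100-106203699), which makes the first ATP of the payoff phase, had 376 TPM in replicate 1 and 399.7 TPM in replicate 2.

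Phosphoglycerate mutase was carried by its muscle gene. Pgam2 (chr11:5801640-5803733), the muscle mutase, had 1038 TPM in replicate 1 and 1124 TPM in replicate 2. Pgam1, the form of brain and most other tissues, had 14.4 TPM in replicate 1 and 6.39 TPM in replicate 2. The muscle share was 98.6% in replicate 1 and 99.4% in replicate 2. Bpgm, which makes the bisphosphoglycerate that tunes haemoglobin in red cells, had 49.9 TPM in replicate 1 and 51.3 TPM in replicate 2. The 7 erythroid markers, 5 of them at 1 TPM or more, had most of their level in the haemoglobin genes, while Slc4a1, the anion exchanger of red cells, had 0.01 TPM in replicate 1 and 0 in replicate 2. The part of blood in the Bpgm level was not tested.

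Enolase was carried by Eno3 (chr11:70657202-70662513), the beta form of striated muscle, with 2931 TPM in replicate 1 and 3154 TPM in replicate 2. Eno1, the alpha form found in most tissues, had 28.5 TPM in replicate 1 and 34.1 TPM in replicate 2, and Eno2 rested on 9 and 27 counts. Eno3 thus held 99.0% of the step in replicate 1 and 98.9% in replicate 2. The start regions of the muscle mutase and the muscle enolase genes are shown because each is the muscle gene of a step that other tissues run with another gene. Both sequences are from RefSeq on GRCm38.p6 (the assembly of mm10), read in the direction of the gene from 250 bases before to 50 bases after the annotated start, on the minus strand at chr11:5803747-5804046 for Pgam2 and on the plus strand at chr11:70656926-70657225 for Eno3. Capitals mark E-boxes, the letters CANNTG on either strand, which read alike on both strands and which myogenic factors such as MyoD are known to bind.
Pgam2: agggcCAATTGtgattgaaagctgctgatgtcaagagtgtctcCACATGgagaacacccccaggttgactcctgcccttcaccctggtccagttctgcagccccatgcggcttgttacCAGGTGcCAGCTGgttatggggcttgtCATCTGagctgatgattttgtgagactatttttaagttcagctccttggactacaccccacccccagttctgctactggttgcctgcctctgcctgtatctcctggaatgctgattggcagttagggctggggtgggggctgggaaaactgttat
Eno3: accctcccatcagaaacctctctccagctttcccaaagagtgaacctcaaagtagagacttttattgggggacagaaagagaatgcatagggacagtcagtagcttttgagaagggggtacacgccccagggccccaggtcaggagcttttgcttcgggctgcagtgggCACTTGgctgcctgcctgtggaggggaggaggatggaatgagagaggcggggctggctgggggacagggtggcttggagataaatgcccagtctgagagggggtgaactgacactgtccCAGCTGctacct
The Pgam2 window held 5 E-boxes and 1 match to the MEF2 motif, which began at position -80 from the start, and the Eno3 window held 2 E-boxes and no MEF2 match. E-boxes occurred in 72.3% of all 32851 RefSeq promoter windows and in 35 of the 51 windows of the 33 genes (32 genes matched, with no entry for Gpd1). The MEF2 motif occurred in 3.19% of all windows and in 2 of the 51, and TATAAA, a form of the TATA box, in 13.6% of all windows and in 3 of the 51. TATAAA and the MEF2 motif were searched on both strands and may overlap each other. A match is a description of letters and shows no bound factor.

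Pyruvate kinase came from Pkm (chr9:59656368-59679375, plus strand), with 1188 TPM in replicate 1 and 1381 TPM in replicate 2. Pklr, the gene of liver and red cells, had 0 counts in both animals. The second quantification gave Pklr 6 counts (0.626 TPM) in replicate 1 and 2 counts (0.255 TPM) in replicate 2, beside 65636 and 87061 counts of Pkm. Pkm makes the M1 and M2 enzymes from a pair of mutually exclusive exons of equal length. M1 is the constitutively active form known from adult muscle and brain, and M2 is the regulated form known from embryonic and dividing cells. The exons are shown because the 2 transcripts that the tables report differ by them. Both are on the plus strand of chromosome 9 in mm10, the M1 exon at chr9:59675029-59675195 in transcript Pkm-202 and the M2 exon at chr9:59675568-59675734 in Pkm-201, read from the GENCODE M21 transcripts, with capitals at the positions where they differ.
M1 exon: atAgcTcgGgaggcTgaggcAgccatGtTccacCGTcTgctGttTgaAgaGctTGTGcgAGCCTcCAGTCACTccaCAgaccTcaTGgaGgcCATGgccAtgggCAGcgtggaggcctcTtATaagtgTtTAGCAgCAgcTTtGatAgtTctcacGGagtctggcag
M2 exon: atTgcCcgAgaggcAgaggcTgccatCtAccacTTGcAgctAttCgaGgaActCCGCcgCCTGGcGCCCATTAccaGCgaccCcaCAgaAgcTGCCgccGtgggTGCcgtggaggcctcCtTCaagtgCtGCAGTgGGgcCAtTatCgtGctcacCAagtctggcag
They are 167 bases each and differ at 64 positions, which leaves 61.7% identity. Pkm-202, with the M1 exon, was assigned 615.6 TPM in replicate 1 and 706 TPM in replicate 2. Pkm-201, with the M2 exon, was assigned 557 TPM in replicate 1 and 655 TPM in replicate 2. The M1 exon therefore carried 51.8% of Pkm TPM in replicate 1 and 51.2% in replicate 2, and the M2 exon 46.9% and 47.4%. In the second quantification the M1 exon carried 48.0% in replicate 1 and 48.6% in replicate 2, and the M2 exon 45.6% and 48.0%. The M1 share exceeded the M2 share in both animals by both methods, but in the second the means of 48.3% ± 0.441 and 46.8% ± 1.70 did not differ beyond their spread. The transcripts also differ at their ends, by 205 bases at the start and 186 bases at the end, and 9.20% of the 31-base words of Pkm-202 and 24.0% of those of Pkm-201 are absent from the other. The tables give no reads per exon, so the split within Pkm was not measured on the exons themselves.

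Lactate dehydrogenase was the least one-sided of the reactions between glucose and lactate. Ldha (chr7:46841475-46855627), which encodes the muscle (M) subunit, had 1225 TPM in replicate 1 and 1251 TPM in replicate 2. Ldhb (chr6:142490249-142507957), which encodes the heart (H) subunit and is known from oxidative fibres, had 145 TPM in replicate 1 and 129 TPM in replicate 2. Ldha held 89.4% of the step in replicate 1 and 90.6% in replicate 2, or 90.03% ± 0.874. Lactate transport was divided in a similar way. Slc16a3 (chr11:120948480-120960868), which encodes MCT4, the lactate exporter of glycolytic fibres, had 111 TPM in replicate 1 and 144 TPM in replicate 2. Slc16a1 (chr3:104638668-104658462), which encodes MCT1, the carrier of oxidative fibres, had 11.2 TPM in replicate 1 and 9.03 TPM in replicate 2. Slc16a3 held 90.8% of the 2-gene sum in replicate 1 and 94.1% in replicate 2.

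The glycerol phosphate shuttle passes cytosolic reducing equivalents to the mitochondrion. Gpd1 (chr15:99717515-99725005), its cytosolic enzyme, had 192 TPM in replicate 1 and 209 TPM in replicate 2. Gpd1l, a related cytosolic enzyme, had 7.88 TPM in replicate 1 and 9.21 TPM in replicate 2, which left Gpd1 with 95.9% ± 0.188 of the cytosolic sum. Gpd2, the mitochondrial enzyme, had 82.3 TPM in replicate 1 and 89.1 TPM in replicate 2. The Gpd1 level was 2.33 times the Gpd2 level in replicate 1 and 2.35 times in replicate 2, the most even ratio between the animals among the 15 gene pairs described below.

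Across the 11 steps with several genes, the leading gene held on average over 90% of the TPM in 10, with a median leading share of 99.0%. The count of 10 rests on Ldha at 90.03%. It was 9 without replicate 2, with protein-coding transcripts only (Ldha 89.96%), with further isozymes in the denominator (Ldha 89.2%), with close copies added (Ldha 89.9%) and by expected counts, where Ldha held 93.2% but Slc16a3 85.0%. The 11 leading genes were Hk2, Pfkm, Pfkfb3, Fbp2, Aldoa, Pgam2, Eno3, Pkm, Ldha, Gpd1 and Slc16a3 in both animals and by both quantifications. The ratios of 15 pairs of related genes were also taken. Most set the leading gene of a step over another gene of it, while Pgam2 over Bpgm and Gpd1 over Gpd2 cross steps and Pfkfb1 over Pfkfb2 sets 2 minor genes against each other. The first-named gene was higher in all 15 pairs in both animals, with a median log2 ratio of 6.60 over the pairs (0.1 TPM added to each value). The pairs were written with the textbook muscle or main form first, and with earlier results known, so this order describes them and tests nothing. The median is the same with the pairs against Fbp1 and Pklr, at 0 in the gene table, set at their lower bounds there. The largest ratio between detected genes was that of Aldoa over Aldoc, 13.35 ± 0.08 on the log2 scale, and the smallest was that of Gpd1 over Gpd2, 1.23 ± 0.01. Pfkfb1 over Pfkfb2 had a log2 ratio of 1.24 in replicate 1 and 2.06 in replicate 2. No p-value is given for these ratios, because an exact two-sided sign-flip test over 2 animals cannot go below p = 0.5.

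**Figure D2:**
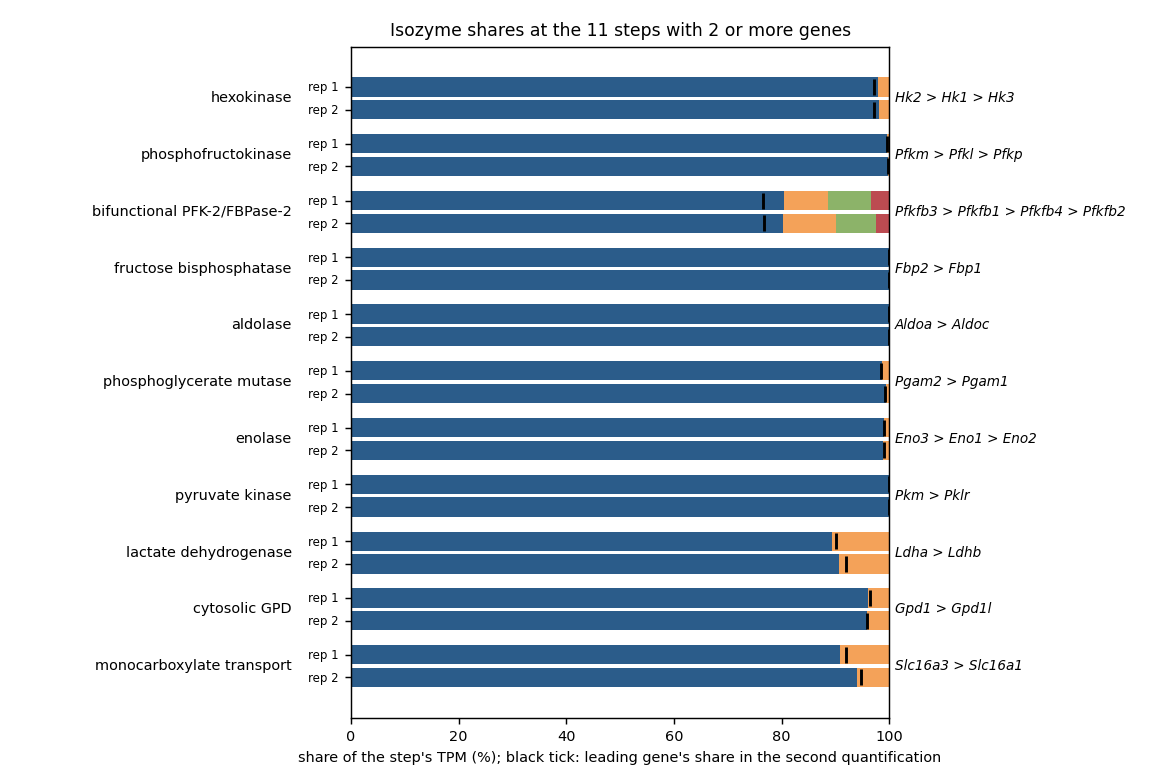
Share of each step's TPM (percent, x axis) held by its genes in replicate 1 (upper bar) and replicate 2 (lower bar), with segments from left to right in the gene order printed beside each step and black ticks at the leading gene's share in the second quantification. The Pfkfb step has the lowest leading share, 80.5% in replicate 1 and 80.2% in replicate 2, and the Ldha share is 89.4% in replicate 1 and 90.6% in replicate 2.

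The levels can be set against the other genes of glucose and lactate handling, a list of 24 genes of which 10 had 1 TPM or more in both animals and 7 had 0 counts in both. Slc2a4, the insulin-regulated glucose transporter, had 164 TPM in replicate 1 and 176 TPM in replicate 2, and Slc2a1, the basal transporter, 1.91 and 3.21 TPM. Pgm1, phosphoglucomutase, which links glycogen to glycolysis, had 571 TPM in replicate 1 and 598 TPM in replicate 2. Bsg, basigin, the partner that brings monocarboxylate carriers to the membrane, had 217 TPM in replicate 1 and 238 TPM in replicate 2, and Emb, embigin, the other such partner, 5.26 and 5.25 TPM. Tigar, a phosphatase that removes phosphate from sugar bisphosphates, had 56.5 TPM in replicate 1 and 68.4 TPM in replicate 2. Pgp, phosphoglycolate phosphatase, had 24.9 and 23.8 TPM, Eno1b, an enolase gene close in sequence to Eno1, 13.0 and 16.0 TPM, Ldhd, the dehydrogenase of D-lactate, 13.6 and 13.1 TPM, and Adpgk, which uses ADP to phosphorylate glucose, 3.08 and 2.75 TPM. The other 14 genes, among them the testis genes Pgk2, Gapdhs and Ldhc, were under 1 TPM in at least 1 animal. Of the 10 genes of this list with a mean of 100 counts or more, none passed 1.5-fold between the animals, against 3.4% of all 9513 genes so compared. So few genes cannot be set apart from that share.

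The animals were compared by the log2 ratio of replicate 1 over replicate 2, from counts scaled by TMM (the trimmed mean of M values, which sets the typical gene near 0) with 1 count added as a prior. The comparison has 1 library on each side, so it has no p-value. A mean of 100 or more counts was reached by 28 of the 33 genes, and Hk3, Fbp1, Aldoc, Eno2 and Pklr were not compared. The ratios of the 28 ran from -0.37 to 1.13 with a median of -0.12, while the median of all 9513 genes compared was 0.00. Replicate 1 was lower for 20 of the 28 genes (71.4%), against 49.9% of all genes compared. Past 1.5-fold lay 1 of the 28 genes (3.57%), against 3.4% of all genes compared, a share near the background. Total counts moved the median of all genes by -0.11 from the TMM value and spike-ins moved it by 0.15. With spike-ins the 28 genes had a median of 0.028 and 12 of them were lower in replicate 1. Relative to the median of all genes, the 28 lay lower by 0.12 with TMM, with 20 of them below it. DESeq2, total count and spike-in scaling shift all genes almost alike, so they leave this difference as it is and do not test it.

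The gene past 1.5-fold was Pgam1 (chr19:41911923-41918660). It had 593 counts in replicate 1 (exact 95% Poisson interval 546 to 643) and 301 in replicate 2 (268 to 337), a log2 ratio of 1.13, or 2.18-fold higher in replicate 1. Among all 9513 genes compared, 38 (0.399%), Pgam1 itself included, were at least as much higher in replicate 1. Its ratio lay between 1.01 and 1.28 under every scaling, prior and quantification tried. Its transcripts share words with a processed pseudogene, Pgam1-ps2, which took 17.8 counts in replicate 2 and none in replicate 1, and with these added the log2 ratio was 1.04.

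The other ratios were smaller. Slc16a1, the carrier of oxidative fibres, had a log2 ratio of 0.28 and Ldhb one of 0.13, while the 6 slow fibre markers had a median of 0.63. Pfkfb2, the form known from heart, had 0.51, Pfkl 0.35 and Pfkp 0.16. At the other end Slc16a3, the carrier of glycolytic fibres, had -0.37, Pfkfb1 -0.37, Eno1 -0.30 and Pkm -0.25, and the 7 fast fibre markers had a median of -0.08. Fbp2 had -0.24, Pfkm and Gpi1 -0.19, Bpgm -0.18, Gapdh and Tpi1 -0.17, Gpd1 and Gpd1l -0.16, Pgam2 -0.14, and Hk1, Eno3 and Pgk1 -0.12. Gpd2 at -0.04, Pfkfb4 at -0.02, Ldha at -0.06, Aldoa at -0.06, Hk2 at 0.03 and Pfkfb3 at 0.04 were close to 0. Spike-in scaling raised all of these, which brought Pkm to -0.10 and put Aldoa and Ldha above 0, and total counts lowered them, which put Hk2 and Pfkfb3 below 0 and Ldhb at 0.01. The smooth muscle and pericyte list had a median of -0.78, the adipocyte list -0.46 and the endothelial list -0.29. The part of fibre type or of other cell types in these ratios was not tested.

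**Figure D3:**
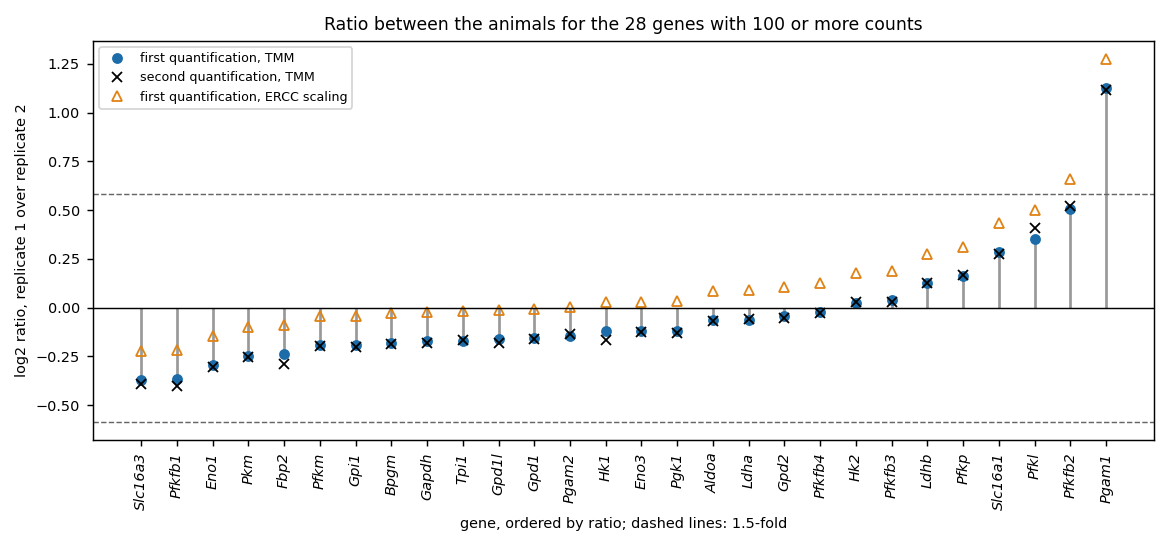
Log2 ratio of replicate 1 over replicate 2 (y axis) for the 28 genes compared, ordered by ratio, with dashed lines at 1.5-fold, crosses for the second quantification and triangles for spike-in (ERCC) scaling. Pgam1 at 1.13 lies beyond the line, the others lie within it by TMM, and spike-in scaling shifts them all upward, Pfkfb2 to 0.66.

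In the first table the dominant transcripts were alike in the 2 animals. Of the 33, 22 had 2 or more annotated transcripts and 5 TPM or more in both animals by both quantifications. In the first table all 22 had the same dominant transcript in both animals, against 90.1% of all genes that met these limits there. In the second table the leading transcript differed between the animals for Eno1, Pfkfb3 and Gpd2. Eno1-208 led there in replicate 1 (33.6%) and Eno1-205 in replicate 2 (38.1%). Pfkfb3-206 led in replicate 1 (34.3%) and Pfkfb3-201 in replicate 2 (19.8%). By the mean of the 2 animals, the second quantification gave the same dominant transcript as the first for 19 of the 22 (86.4%), against 81.3% of all genes. The exceptions were Pfkm, Pfkfb3 and Gapdh.

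Transcript shares are means of the 2 animals, in percent of the gene's TPM in the first table and then in the second. Pgk1-201 held 99.9% and 99.8%, Gpd1-201 99.7% and 99.6%, Fbp2-201 100% and 89.5%, and Pgam1-201 97.3% and 80.6%. Ldha-202 held 98.3% and 64.9%, and Tpi1-205 88.1% and 73.6%. Hk2-201, of 5513 bases, held 78.2% and 93.4%. A 594-base processed transcript, Hk2-202, held 20.8% of Hk2 TPM in replicate 1 and 21.5% in replicate 2 in the first table, from 300.1 and 340.3 counts, and 0 in the second. The Hk2 level was 115.8 TPM in replicate 1 and 112 TPM in replicate 2 in the first table and 78.8 and 74.7 TPM in the second.

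Slc16a3-201 held 73.2% and 76.3%, Gpd1l-204 77.1% and 87.5%, Pfkfb4-201 68.8% and 49.5%, and Bpgm-201 64.7% and 60.1%. Ldhb-201 held 73.0% and 55.7%, beside the 437-base Ldhb-202. Gpi1-201 held 58.7% and 48.5%, Eno1-205 52.3% and 33.9%, Pfkfb1-201 50.9% and 46.0%, and Eno3-201 42.6% and 46.9%. The dominant transcript of Gpd2 by the means, Gpd2-205 (52.4% and 45.1%), is a 620-base processed transcript with no annotated protein. In replicate 1 it took 533 of the 6030 Gpd2 counts at 49.4% of the TPM, and in replicate 2 731 of 6903 counts at 55.3%, where TPM is corrected for its short length. The coding Gpd2-201 held 45.0% and 43.7%. In the second table these 2 transcripts did not differ beyond their spread, and Gpd2-201 led in replicate 1 (43.2% against 42.8%). Pgam2 and Slc16a1 have 1 transcript each. The dominant transcript of Pfkfb3 was Pfkfb3-202 in the first table (26.6%) and Pfkfb3-206 in the second (26.3%), among 21 annotated, and Pfkfb3-214 held 17.2% and 2.88%.

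Among the lesser transcripts of these genes, some were assigned a sizeable share by both tables, though not always a like one. Bpgm-205 held 34.4% and 38.3%, Ldhb-202 26.4% and 37.3%, Pfkfb4-205 20.985% and 20.9%, Eno1-202 34.0% and 27.1%, and Pfkfb1-202 35.9% and 21.8%. Aldoa-210 held 16.3% and 8.05%, Tpi1-203 11.6% and 26.1%, and Gpd1l-201 21.7% and 8.98%. Others were assigned mainly by 1 of the tables. Eno3-206 held 28.9% and 0.0796%, and Slc16a3-207 12.7% and 1.57%, whereas Eno3-204, of 427 bases, held 0.295% and 28.9%. The second table alone gave over 10% to Eno1-208 (28.4%), Ldha-212 (18.9%), Ldha-205 (14.7%), Pgam1-203 (17.0%), Fbp2-202 (10.5%), Gpi1-205 (24.3%), Gpi1-207 (23.2%), Pfkfb1-206 (17.3%), Pfkfb4-210 (13.1%) and Slc16a3-204 (16.3%).

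**Figure D4:**
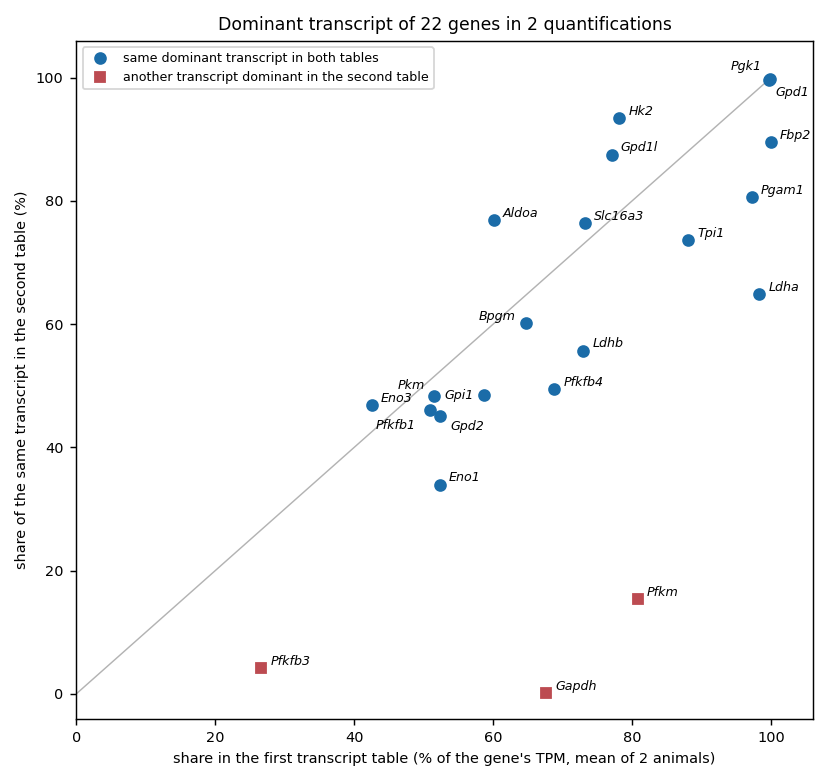
Share of each gene's dominant transcript of the first table (x axis, percent of the gene's TPM, mean of 2 animals) against the share of that same transcript in the second table (y axis) for 22 genes, with squares where the second table has another dominant transcript. The Gapdh transcript has 67.7% in the first table and 0.0787% in the second, and the Pfkm transcript 80.8% and 15.4%, far below the diagonal, while Pgk1 and Gpd1 lie at its upper end.

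For 12 of the 33 genes RefSeq lists 2 or more start regions, and transcripts that start within 100 bases of one show how the gene's TPM divides among them. The pairs for Aldoa and Pfkm are shown, as the windows of 250 bases before to 50 after each start, because their transcripts divide between starts. Capitals again mark E-boxes. The Aldoa windows are on the minus strand at chr7:126800398-126800697 (upstream start, transcript Aldoa-203) and chr7:126799205-126799504 (downstream start, Aldoa-201). The Pfkm windows are on the plus strand at chr15:98092339-98092638 (upstream start, 3 transcripts led by Pfkm-205) and chr15:98108221-98108520 (downstream start, Pfkm-201).
Aldoa upstream: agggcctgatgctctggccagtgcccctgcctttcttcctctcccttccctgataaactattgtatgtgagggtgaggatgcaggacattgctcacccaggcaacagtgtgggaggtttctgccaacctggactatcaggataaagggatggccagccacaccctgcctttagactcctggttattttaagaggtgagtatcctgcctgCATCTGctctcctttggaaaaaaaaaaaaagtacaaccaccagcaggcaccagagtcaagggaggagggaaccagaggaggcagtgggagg
Aldoa downstream: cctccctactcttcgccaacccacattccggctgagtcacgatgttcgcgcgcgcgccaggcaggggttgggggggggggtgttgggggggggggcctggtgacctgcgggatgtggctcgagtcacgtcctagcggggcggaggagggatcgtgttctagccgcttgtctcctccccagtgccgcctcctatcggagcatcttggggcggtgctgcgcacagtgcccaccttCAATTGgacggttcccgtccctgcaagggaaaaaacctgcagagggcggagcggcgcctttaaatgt
Pfkm upstream: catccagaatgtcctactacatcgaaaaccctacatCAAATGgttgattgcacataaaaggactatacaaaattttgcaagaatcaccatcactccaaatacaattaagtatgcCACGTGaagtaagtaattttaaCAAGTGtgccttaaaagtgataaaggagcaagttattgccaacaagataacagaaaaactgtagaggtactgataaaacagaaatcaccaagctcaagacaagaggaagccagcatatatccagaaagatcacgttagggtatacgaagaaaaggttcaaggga
Pfkm downstream: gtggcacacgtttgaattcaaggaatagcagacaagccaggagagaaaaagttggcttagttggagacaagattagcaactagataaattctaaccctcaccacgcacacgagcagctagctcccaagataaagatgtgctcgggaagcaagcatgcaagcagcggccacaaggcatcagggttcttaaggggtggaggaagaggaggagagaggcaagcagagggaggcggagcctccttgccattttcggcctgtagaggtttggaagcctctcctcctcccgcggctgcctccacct
The upstream Aldoa start carried 61.3% of Aldoa TPM in replicate 1 and 58.9% in replicate 2, and the downstream start 22.8% and 22.3%. The second quantification gave 76.9% ± 2.11 and 13.9% ± 0.99 to the same starts, so the order was the same by both. For Pfkm the 2 quantifications gave opposite orders. The first assigned 86.0% of Pfkm TPM in replicate 1 and 86.5% in replicate 2 to the upstream start and 13.9% and 13.5% to the downstream start. The second assigned 27.7% and 21.2% to the upstream start and 67.9% and 77.7% to the downstream start. The start that Pfkm uses in this muscle therefore cannot be told from these tables, while its summed level was 1283 ± 102 TPM in the first and 986 ± 51.2 TPM in the second. Each Aldoa window held 1 E-box, the upstream Pfkm window 3 and the downstream one none.

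In counts, Gapdh differed between the quantifications more than any other gene compared. It had 68954 counts in replicate 1 and 86274 in replicate 2 in the first table, against 109582 and 138665 in the second, a ratio of second to first of 1.59 in replicate 1 and 1.61 in replicate 2. For the other 27 genes compared this ratio of counts lay between 0.961 and 1.20. In TPM the order was another one, since TPM also depends on which transcript the counts are given to. Gapdh averaged 4515 ± 454 TPM in the first table and 5547 ± 634 TPM in the second, while Hk2 averaged 114 ± 2.51 and 76.7 ± 2.88 TPM and Eno3 3043 ± 157 and 4243 ± 163 TPM. The first table assigned 66.0% of Gapdh TPM in replicate 1 and 69.3% in replicate 2 to Gapdh-208, a 483-base processed transcript. Gapdh-201, the 1272-base coding transcript, held 32.9% and 29.8% there. The second table put 47.9% and 48.0% on the 471-base Gapdh-207 and 37.7% and 32.8% on Gapdh-203. Since TPM is corrected for length, counts assigned to a short transcript raise it more than the same counts on a long one.

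Gapdh also has many close copies in the mouse genome. Of its annotated 31-base words, pooled over all its transcripts, 72.8% occur in no other gene. The transcripts named above had far fewer such words, 7.89% in Gapdh-201, 8.61% in Gapdh-208, 15.9% in Gapdh-203 and 38.8% in Gapdh-207. In all, 43 annotated genes share at least 50% of their own words with Gapdh, nearly all of them processed pseudogenes. The copy with the most reads in the second table was Gm7336 (chr7:51746647-51747878), with 47193 counts in replicate 1 and 55482 in replicate 2 there, but 586 and 600.3 in the first. With all 43 copies added, Gapdh had 74340 counts in replicate 1 and 92661 in replicate 2 in the first table and 157760 and 195622 in the second, which is still 2.12-fold and 2.11-fold more in the second. Replicate 2 was higher than replicate 1 by either table, with or without copies.

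**Figure D5:**
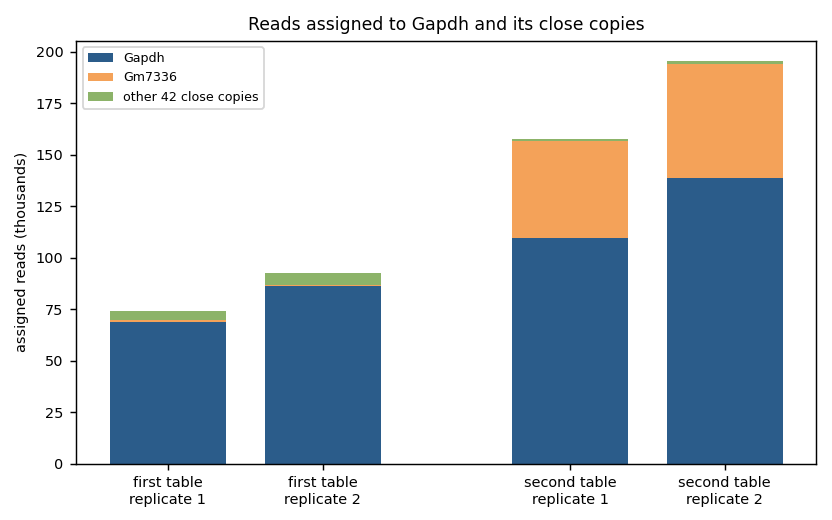
Assigned reads (in units of 1000) of Gapdh, of its copy Gm7336 and of the other 42 close copies, stacked, in replicate 1 and replicate 2 of the first and second table. Gm7336 takes 47193 reads in replicate 1 and 55482 in replicate 2 in the second table, and under 1000 in each animal in the first.

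Of the 33 genes, 22 had over 90% of their words in no other gene. The lowest were Pgk1 at 45.3%, Pgam1 at 62.9%, Pkm at 65.3%, Ldhb at 67.0%, Eno1 at 71.5% and Gapdh at 72.8%, and reads of these genes may be split with other genes. These values pool all transcripts of a gene, and single transcripts could be lower. Pgk1-201 had 31.7%, Pgam1-201 57.9%, Ldhb-201 58.6% and Gapdh-201 7.89%. Pgam2, Eno3, Gpd1 and Slc16a3 had 100% each, although the TPM of Eno3 differed between the quantifications. Close copies were found for 9 of the 33. The Pgk1 copy Gm5537 took 242 counts in replicate 1 and 402 in replicate 2 in the first table and 0 in the second, beside 16328 and 19669 of Pgk1. Eno1b and Gm4735, 2 copies of Eno1, brought its counts to 1546 in replicate 1 and 2103 in replicate 2, against 819.9 and 1118 for Eno1 alone, and Eno3 then held 98.3% of the enolase step.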

How the data were processed

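Per the deposited README, all tables used mm10 and GENCODE M21. The authors' deposited expected count is an estimated number of reads per gene, not normalized, and the deposited TPM is corrected for length and library. In the first of 2 transcript tables the deposited percent is each transcript's share of its gene. The gene and first transcript tables have RSEM's column names, and the second transcript table, called the second quantification, has kallisto's estimated counts and TPM. Aligner, quantifier versions and strand setting are not given in the sources used here, so overlapping and antisense genes may share reads.

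The genes and lists were chosen with earlier results of these data known. All 33 genes are named with their level. Transcripts are named where they hold 10% or more of a gene's TPM in either table, the 3 highest a gene (4 for Gapdh), and only for genes at 5 TPM or more by both quantifications. Other pathway genes are named at 1 TPM or more, and the 3 highest markers only of the fibre lists. Expected counts were rounded and scaled by TMM (edgeR 4.0.16, R 4.3.3). The calculation was tested on simulated counts with sampling noise only, which does not test the spread between these animals. Gene sums leave out spike-ins. Counts of the 2 animals differed by far more than sampling noise, with a ratio of chi-square to degrees of freedom of 94.5. Word sharing used 31-base words on the same strand, and close copies share at least 50% of their words and at least 50 words. Alternatives tried were scaling by total counts, by spike-ins and by size factors from DESeq2 1.42.0, other pseudocounts, priors, minimums and denominators, and each animal left out. Computation used matplotlib 3.10.9, scipy 1.17.1, pandas 2.3.3 and numpy 2.4.6 under Python 3.11.15. Sequences are from RefSeq (GRCm38.p6) and GENCODE M21.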

Additional observations from a re-analysis of the deposited data

How the results depend on the processing

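No paired analysis was possible because the labels give 1 group only. The 11 leading isozymes were the same under every alternative run. Their median share was 98.4% by expected counts, 98.3% with close copies added (chosen after seeing the data), and 98.6% to 98.9% with either animal left out. The median isozyme log2 ratio was 5.17 with 1 TPM added, 4.54 over pairs with both genes at 1 TPM or more, and 6.16 to 6.53 with either animal left out. The median ratio between animals was -0.23 by total counts, 0.028 by spike-ins (12 genes lower), -0.13 by the second quantification, -0.10 by TPM, and -0.13 without genes under 70% unique words (added after seeing the data). Genes past 1.5-fold numbered 323, against 1711 at a minimum of 10 counts, 7420 with no minimum, and at the main minimum 1290 past a log2 ratio of 0.32 (1.5-fold is 0.58) and 88 past 2-fold. Of 28 of the 33 genes, 1 was past it, against 2 of 28 by spike-ins (7.14%, against 4.499% of all genes; Pfkfb2 joins at 0.66), 2 of 30 at 10 counts (6.67% against 12.1%), 2 of 31 with no minimum (6.45% against 33.8%; Eno2 joins in both) and 5 of 28 past 0.32 (17.9% against 13.6%). The summed share was 6.37% in the second quantification, 2.64% of all gene TPM, and 5.86% to 6.22% with either animal left out. Of the 220 ratios of single genes between animals, 1 (Pfkfb2) crossed 1.5-fold and 13 changed sign (8 by spike-ins, 3 by TPM, 2 by total counts), and 39 shares and pair ratios moved by over 1 SD between animals. The cause was not tested. The 220 include 24 that repeat the main ratios unchanged (genes under 70% unique words left out). Adding close copies changes only genes that have them. Leaving out 1 of 2 animals cannot move a mean by over 1 SD. Depth limits Hk3, Eno2 and Aldoc, with 5 to 40 counts, and 2 animals limit every spread.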

Other observations

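The TPM of 18 of the 33 genes in replicate 1 and 17 in replicate 2 lay outside the interval that the authors' deposited gene table gives for the same gene. The share over all genes was not computed, so these counts cannot be read as particular to the 33. Emb had 5.26 TPM in replicate 1 and 5.25 TPM in replicate 2 in the gene table, against 1.27 and 0.888 TPM in the second quantification.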
